A study of Mus musculus with 8 samples.

Results

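Transport of ammonia, water, protons, bicarbonate and sodium was examined through 8 genes in esophageal epithelial cells of C57BL6 mice. The set was fixed by name and holds the ammonia transporter Rhcg, the aquaporins Aqp3 and Aqp5, the carbonic anhydrases Car2 and Car12, the anion exchanger Slc4a2, the sodium channel subunit Scnn1a and the sodium pump subunit Atp1b1. All 8 were found among the 55276 gene symbols of the count table, and 7 passed the filter on low counts. Rhcg did not. In the sort, live epithelial cells (DAPI excluded, integrin beta-1 on the surface) were divided by Cyto-ID, a dye of autophagic vesicles, into a Cyto-ID Low and a Cyto-ID High fraction. The 4 animals, Female1, Female2, Male1 and Male2, were 14 to 15 weeks old, and each gave 1 library of each fraction. The labels name no transgene and no treatment other than the dye, and both fractions come from the same tissue, peeled off the muscle and digested with dispase and trypsin. The series asks what sets basal cells rich in autophagic vesicles apart. Since libraries come from sorted pools, fewer cells of a type and less RNA per cell cannot be told apart in any value that follows.

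Stratified squamous epithelium faces salt, acid and water at its lumen. Sodium enters through the epithelial sodium channel, which is built from alpha, beta and gamma subunits (Scnn1a, Scnn1b and Scnn1g), and leaves through the sodium pump, an alpha subunit paired with a beta subunit. Carbonic anhydrases interconvert carbon dioxide and bicarbonate, and exchangers such as Slc4a2 and the Slc9 family move bicarbonate and protons across membranes. Aquaporins conduct water, and Aqp3 also glycerol.

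The libraries were of like depth, with 26285150 to 28599954 counts in the 4 Low and 27486049 to 29301054 in the 4 High libraries. Both fractions held keratinocyte markers. The summed level of 11 basal markers (Krt5, Krt14 and others) was 22265 to 26526 CPM (counts scaled to a common library size with TMM factors, the trimmed mean of M values) in Low and 2894 to 4603 CPM in High, and all 11 were lower in High past the threshold. Of 14 suprabasal markers, which include Krt4 and Krt13, 13 were higher and the sum went from 8923 to 26553 CPM in Low to 148805 to 250124 CPM in High. The label of the High fraction as basal cells thus stands beside a layer difference in its markers, and the part of that difference in the results was not tested. In the High library of Male2 the sums of leukocyte, fibroblast, endothelial, muscle and red blood cell markers were the lowest of the 8 libraries. Gastric markers were raised in both libraries of Female2 (19.9 CPM in Low and 118 CPM in High, against 0.694 to 1.44 CPM in the other 6).

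Of the 7 genes tested, Scnn1a and Aqp3 were higher in Cyto-ID High and Car12 and Slc4a2 were lower, while Aqp5, Car2 and Atp1b1 did not pass (edgeR's quasi-likelihood test with sex as a covariate, Benjamini-Hochberg adjusted p under 0.05 over 17344 genes). By the same rule 48.7% of all tested genes were called, with 23.4% of all tested genes higher and 25.3% lower in High. A count of 4 among 7 is therefore near the share of all genes and is no result about the set. The median log2 fold change of the 7 was −0.02, beside −0.09 over all tested genes. The 4 High libraries lay wholly above or below the 4 Low libraries for Scnn1a, Aqp3 and Car12, as they did for 48.6% of all tested genes. Scaling to total counts in place of TMM moved the median of all genes from −0.09 to −0.64, and the 4 calls held in the same direction under it.

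**Figure D1:**
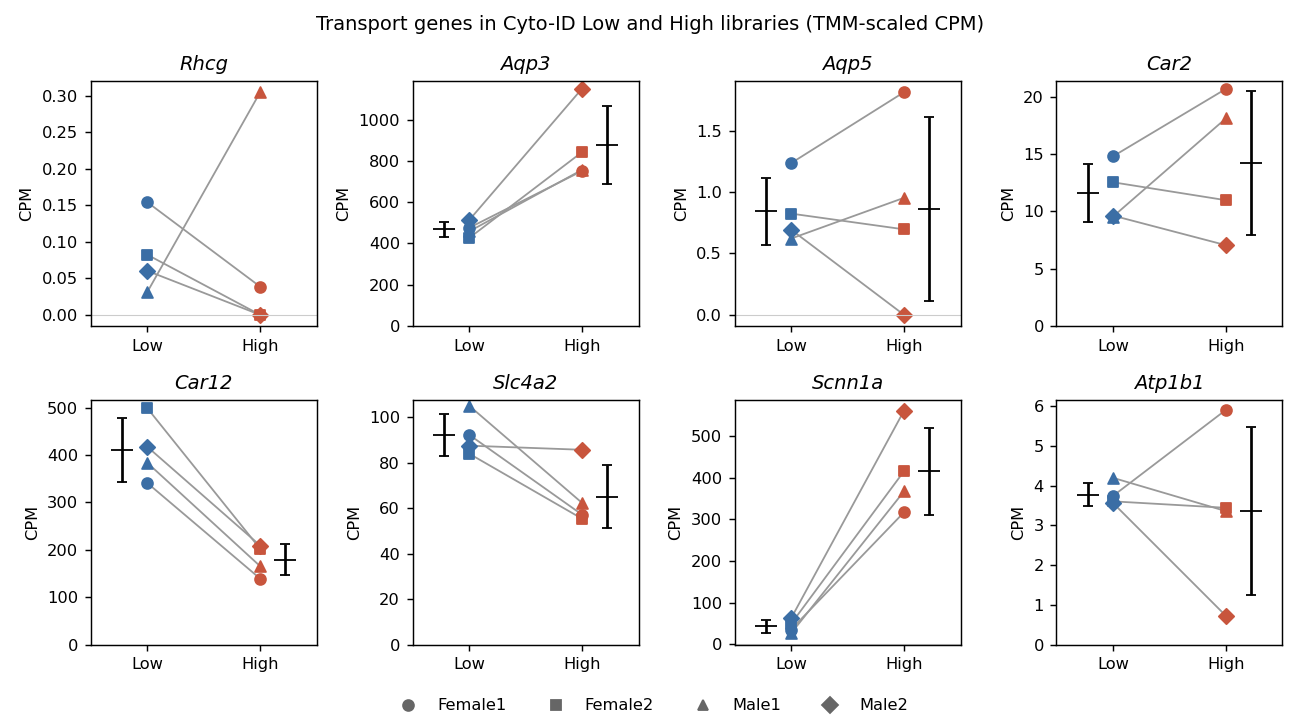
Levels of the 8 transport genes in each library, in TMM-scaled CPM on linear axes, with Cyto-ID Low on the left and High on the right of each panel. Grey lines join the libraries of 1 animal and black bars give the mean and SD over 4 animals, except for Rhcg, whose few counts are shown only as points. Scnn1a rose in all 4 animals, and the Car12 points of High lie below all those of Low.

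Scnn1a encodes the alpha subunit, the pore-forming core of the epithelial sodium channel (ENSMUSG00000030340.16, chr6:125320659-125344943, plus strand, GRCm38). In Cyto-ID Low it was at 35.5 CPM (Female1), 49.2 CPM (Female2), 26.4 CPM (Male1) and 62.3 CPM (Male2). In Cyto-ID High the same animals had 317, 416, 368 and 561 CPM. The lowest High library was thus well above the highest Low library. The mean rose from 43.4 ± 15.7 to 416 ± 105 CPM (SD, n = 4 each), 9.52-fold, or 3.25 on the log2 scale (SE 0.30; adjusted p by edgeR 2.74e-05). Differences per animal ran from 3.08 in Female2 to 3.80 in Male1 on the log2 scale. Among the Low libraries, the order of Scnn1a from Male1 through Female1 and Female2 to Male2 was also the order of the summed suprabasal markers (8923, 13245, 20168 and 26553 CPM). In High, Male2 was likewise highest in both. Whether Scnn1a differs between fractions beyond this shift of layer markers was not tested.

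The partner subunits were higher in High as well, with smaller log2 differences. Scnn1b rose from 6.92 ± 1.82 to 20.1 ± 3.80 CPM (SD, n = 4 each), or by 1.54 (SE 0.23; adjusted p by edgeR 0.000397). Scnn1g stood at 6.34 ± 0.692 CPM (Low) and 9.07 ± 1.58 CPM (High), a log2 difference of 0.51 (SE 0.17; adjusted p by edgeR 0.0287). That call did not hold in all settings. Under total counts the value was −0.04, the adjusted p ran from 0.0113 to 0.881 over the alternatives, and it missed the threshold with any 1 of 6 libraries left out (Low Female1, High Female1, Low Male1, High Male1, Low Male2 or High Male2). Per kilobase of exon, Scnn1a stood at 4.01 ± 1.1 times Scnn1b in Low and at 13.1 ± 1.79 times in High (SD, n = 4 each). Against Scnn1g the ratio was 4.98 ± 1.94 in Low and 34.3 ± 11.3 in High. In both cases the ratios of the 4 High libraries lay above those of the 4 Low libraries.

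The list of 13 channel partners and regulators held 11 tested genes, 7 higher and 2 lower, or 81.8% called beside 48.7% of all genes. The 7 higher include the subunits Scnn1b and Scnn1g, and genes that act on the channel were in the same list. Prss8, a membrane-bound serine protease that activates the channel, rose from 11.1 ± 2.16 to 37.8 ± 7.06 CPM, or by 1.76 (SE 0.20; adjusted p by edgeR 7.82e-05), although exons of Kat8 overlap it on the other strand. Wnk4, a kinase that regulates salt transport, rose by 1.71 (SE 0.20), from 53.6 ± 3.98 to 177 ± 51.1 CPM, and exons of Gm11615 overlap it on the other strand. Nedd4l, the ubiquitin ligase that removes the channel from the surface, fell from 55.9 ± 15.3 to 28.8 ± 9.71 CPM, a log2 difference of −0.95 (SE 0.26; adjusted p by edgeR 0.0138). Without Low Female1 its adjusted p was 0.0547, the highest of its alternatives. Furin, a protease that cleaves the alpha and gamma subunits, fell by 0.65 on the log2 scale (SE 0.18; adjusted p by edgeR 0.0124). In all 4 animals Prss8 and Wnk4 were higher, and Nedd4l and Furin lower, in High than in Low. The rule that named these genes required 1 direction in all 4 animals.

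**Figure D2:**
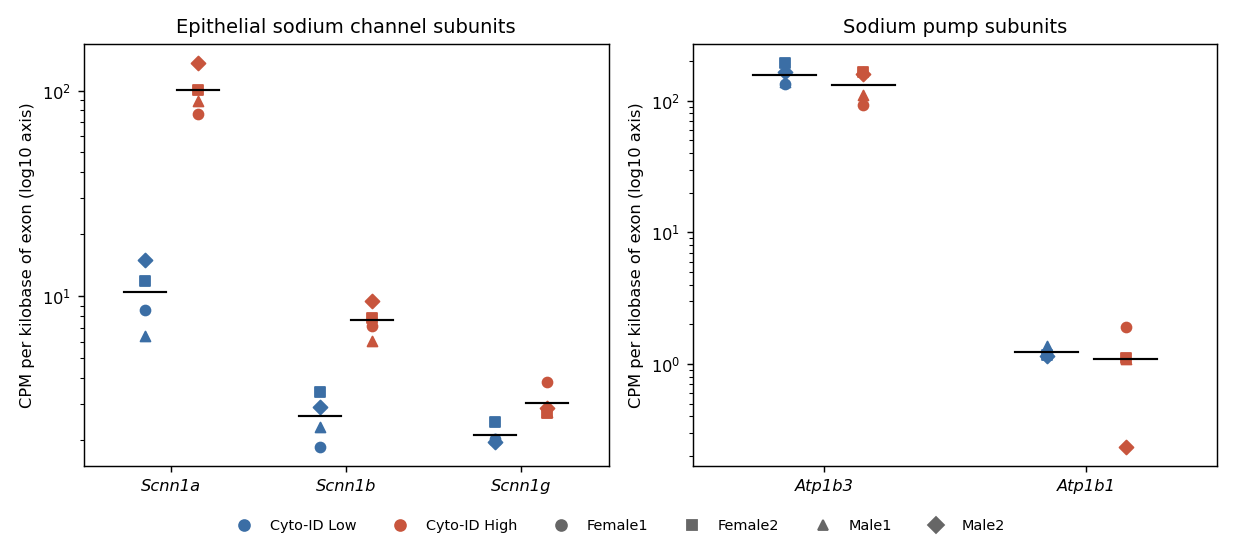
Subunits of the epithelial sodium channel (left) and of the sodium pump (right), in CPM per kilobase of exon on a log10 axis, with 1 point per library, animals by symbol and black lines at the mean of 4. The Scnn1a points of High lie far above those of Low, Scnn1b and Scnn1g follow with smaller steps, and Atp1b1 lies far below Atp1b3 in both fractions.

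The other end of the sodium path is the pump. Atp1b1 encodes a beta subunit, which brings the alpha subunit to the membrane (ENSMUSG00000026576.12, chr1:164437109-164458355, minus strand). Its exons overlap Nme7 on the other strand, and as strandedness of the counting is not given in the sources used here, reads of the pair may be mixed. In Cyto-ID Low it was at 3.74, 3.60, 4.19 and 3.56 CPM (Female1, Female2, Male1, Male2) and in High at 5.90, 3.44, 3.36 and 0.72 CPM. Female1 was the highest High library, Male2 the lowest, and the groups overlapped. The log2 fold change was −0.26 (SE 0.44; adjusted p by edgeR 0.674), and +0.13 without High Male2, where only 14 counts were found.

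Atp1b3, another beta subunit, averaged 377 ± 64.9 CPM (Low) and 314 ± 85.3 CPM (High), with lower values in High in all 4 animals, a log2 difference of −0.26 (SE 0.23; adjusted p by edgeR 0.382). Its adjusted p was 0.00309 under total counts and went up to 0.738 over the alternatives. Per kilobase of exon Atp1b3 stood at 130 ± 29.1 times Atp1b1 in Low and at 48.1 to 680 times in High.

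Aqp3, the water and glycerol channel of keratinocytes, was the most abundant of the 8 genes in both fractions (ENSMUSG00000028435.8, chr4:41092722-41098183, minus strand). Low libraries had 476, 426, 458 and 513 CPM and High libraries 752, 843, 757 and 1151 CPM in the order Female1, Female2, Male1, Male2. Every High library exceeded every Low library, with Male2 highest in both. The mean rose 1.86-fold, from 468 ± 36.0 to 875 ± 188 CPM (SD, n = 4 each), or by 0.90 on the log2 scale (SE 0.18; adjusted p by edgeR 0.00217). Under total counts the change was 0.32 (adjusted p 0.0398, where all alternatives ran from 5.23e-08 to 0.0398), so its size depends on the scaling.

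Aqp5, a water channel of secretory glands, was low in all libraries (ENSMUSG00000044217.17, chr15:99590782-99594829, plus strand). The Low libraries held 40, 30, 20 and 23 counts and the High libraries 47, 16, 25 and 0, or 1.24, 0.825, 0.621 and 0.694 CPM against 1.81, 0.697, 0.953 and 0 CPM. The 0 in High Male2 allows up to 3 counts, or 0.154 CPM. Groups overlapped, with 2 animals higher and 2 lower in High, and the log2 fold change was −0.02 (SE 0.68; adjusted p by edgeR 0.982). The High libraries ranged from 0 to 47 counts, and the difference per animal from −2.87 in Male2 to 0.59 in Male1 on the log2 scale. Of the 10 other aquaporins 3 passed the filter, Aqp1, Aqp9 and Aqp11, and none of them was called (edgeR's quasi-likelihood test). Their log2 fold changes were −0.38 (SE 0.64), 0.55 (SE 0.32) and −0.79 (SE 0.31), and they are named after their values were seen. At an unadjusted p under 0.05 Aqp11 alone passed.

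Carbonic anhydrases did not move as a family. Car12, a membrane-anchored enzyme with its active site outside the cell, fell in all 4 animals (ENSMUSG00000032373.15, chr9:66713686-66766845, plus strand). It went from 341, 499, 384 and 418 CPM in the Low libraries of Female1, Female2, Male1 and Male2 to 139, 202, 165 and 209 CPM in High. Every High library lay below every Low library, and within both fractions Female1 was lowest. The mean fell from 411 ± 67.0 to 179 ± 32.8 CPM (SD, n = 4 each), with a log2 difference of −1.20 (SE 0.19; adjusted p by edgeR 0.000654), which is 2.30-fold. The difference per animal was −1.20 ± 0.142 on the log2 scale, the smallest spread among the 8 genes. Under total counts it was −1.79.

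Car2, the fast cytosolic enzyme, which red blood cells also carry, was at 14.8, 12.5, 9.54 and 9.63 CPM in Low and 20.7, 11.0, 18.1 and 7.05 CPM in High (ENSMUSG00000027562.12, chr3:14886273-14900770, plus strand). It was higher in High in Female1 and Male1 and lower in Female2 and Male2. The groups overlapped, and the log2 fold change was 0.31 (SE 0.29; adjusted p by edgeR 0.430), with −0.19 under total counts.

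Among the 14 other carbonic anhydrases 7 were tested, 2 higher and 2 lower, or 57.1% called beside 48.7% of all genes. Car13, a cytosolic enzyme, rose from 160 ± 24.0 to 361 ± 110 CPM, or by 1.17 (SE 0.24; adjusted p by edgeR 0.00247). Car9, which like Car12 works outside the cell, fell from 5.63 ± 1.71 to 2.43 ± 0.340 CPM, a log2 difference of −1.21 (SE 0.27; adjusted p by edgeR 0.00398), and exons of Gm12454 overlap it on the other strand. The mitochondrial Car5b fell from 7.44 ± 0.939 to 3.20 ± 0.690 CPM (−1.22, SE 0.20). Car11, without catalytic activity, was the other higher gene, at 2.7 ± 0.634 CPM in High (log2 fold change 0.74, SE 0.26, adjusted p by edgeR 0.0429), and is named here after its values were seen. The level of Car12 per kilobase was 0.777 ± 0.036 of that of Car13 in Low and 0.155 ± 0.022 in High (SD, n = 4 each). These ratios did not overlap between fractions.

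Slc4a2 exchanges chloride for bicarbonate across the basolateral membrane (ENSMUSG00000028962.14, chr5:24423837-24440950, plus strand). Low libraries had 92.2, 83.9, 105 and 87.4 CPM and High libraries 57.1, 55.3, 62.2 and 85.6 CPM, in the order Female1, Female2, Male1, Male2. In Male2 the fractions were almost level (−0.03 on the log2 scale), while the other 3 animals differed by −0.60 to −0.75, and High Male2 lay inside the range of Low. The mean was 92.1 ± 9.23 CPM in Low and 65.0 ± 14.0 in High (SD, n = 4 each), with a log2 difference of −0.51 (SE 0.15; adjusted p by edgeR 0.0172). The call was lost without High Female2 (adjusted p 0.0517) and without High Male1 (0.0545), in a range of 9.71e-05 to 0.0545 over all alternatives. Under total counts the value was −1.09. Exons of Fastk, which was not called, overlap it on the other strand.

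Of the 20 other bicarbonate and anion exchangers 12 were tested, 2 higher and 5 lower, or 58.3% called beside 48.7% of all genes. Slc26a9, a chloride transporter of epithelial surfaces, rose from 3.57 ± 2.13 to 53.5 ± 13.8 CPM, or by 3.90 (SE 0.47; adjusted p by edgeR 0.000109). The other anion exchanger Slc4a3 fell by 2.18 on the log2 scale (SE 0.35), from 8.63 ± 1.58 to 1.88 ± 0.948 CPM. Slc4a7, which carries sodium and bicarbonate into the cell, fell by 1.67 (SE 0.20), from 45.0 ± 11.1 to 14.2 ± 2.75 CPM. The sulfate transporter Slc26a2 fell by 0.70 (SE 0.17), from 135 ± 13.0 to 83.1 ± 15.0 CPM.

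Proton exchangers and pumps were split in direction, with 4 higher and 3 lower of 10 tested, or 70.0% called beside 48.7% of all genes. Slc9a3, the sodium-proton exchanger of apical membranes, rose from 0.992 ± 0.541 to 13.3 ± 0.607 CPM, or by 3.74 (SE 0.39; adjusted p by edgeR 5.49e-05). Its scaffold protein gene Slc9a3r1 rose by 1.90 (SE 0.22), to 362 ± 103 CPM, and the endosomal exchanger Slc9a9 by 1.51 (SE 0.16), to 33.5 ± 5.84 CPM. Slc9a8, an exchanger of internal membranes, fell by 1.42 (SE 0.14), from 20.8 ± 1.13 to 7.79 ± 0.603 CPM. Atp12a, the non-gastric proton-potassium pump, had 6.30, 3.11, 15.7 and 12.8 CPM in Low and 0.810, 0.0871, 0.191 and 2.01 CPM in High, a log2 difference of −3.57 (SE 0.65; adjusted p by edgeR 0.00139). All 4 High libraries lay below all 4 Low libraries, and exons of Gm10873 overlap it on the other strand.

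Rhcg is an ammonia channel known from the apical membrane of the kidney's collecting duct and from squamous epithelium (ENSMUSG00000030549.6, chr7:79593363-79617657, minus strand). It was near absent here, with 5, 3, 1 and 2 counts in the Low and 1, 0, 8 and 0 counts in the High libraries of Female1, Female2, Male1 and Male2. The highest level was 0.305 CPM in High Male1, where 3 counts correspond to 0.114 CPM. It failed the filter on low counts, and no fold change is given. Its close relative Rhbg, the basolateral ammonia transporter in the kidney, was at 2.90, 4.29, 2.24 and 5.37 CPM in Low and 34.2, 37.1, 40.6 and 47.1 CPM in High. The Rhbg groups were far apart, and the mean rose 10.7-fold, from 3.70 ± 1.41 to 39.8 ± 5.56 CPM (SD, n = 4 each; log2 fold change 3.41, SE 0.27, adjusted p by edgeR 1.62e-05). Exons of Gm38392 overlap Rhbg on the same strand. Rhag and Rhd were not tested, with at most 2 counts in any library.

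**Figure D3:**
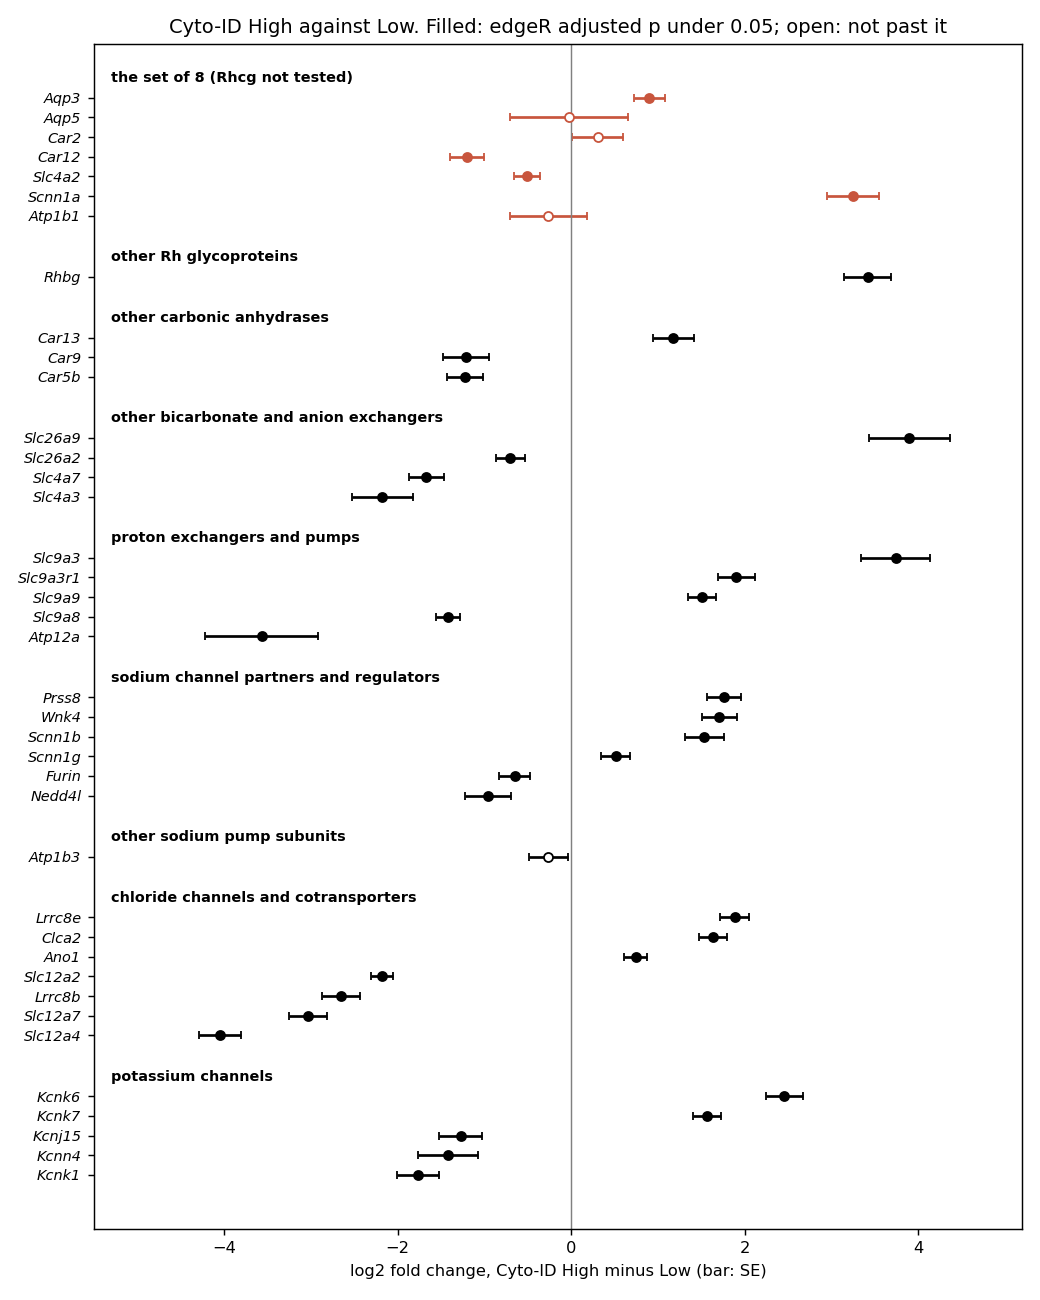
Log2 fold changes of Cyto-ID High minus Low with their SE for the 7 tested genes of the set (red) and other transport genes named by rule, grouped by family. Filled symbols passed the adjusted p of 0.05. Scnn1a, Rhbg, Slc26a9 and Slc9a3 lie farthest to the right, and Slc12a4, Atp12a and Slc12a7 farthest to the left.

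Chloride and potassium pathways complete the picture of the families around these genes. Of 30 chloride channels and cotransporters 17 were tested, 4 higher and 7 lower, or 64.7% called beside 48.7% of all genes. The cotransporters that carry chloride with potassium or sodium were lower: Slc12a4 fell from 80.8 ± 8.23 to 4.90 ± 1.73 CPM (log2 fold change −4.05, SE 0.24, adjusted p by edgeR 1.27e-05), Slc12a7 by 3.04 (SE 0.22) and Slc12a2 by 2.18 (SE 0.13). Exons of Gm16156 overlap Slc12a4 on the other strand. Subunits of the volume-regulated anion channel went both ways, since Lrrc8b fell by 2.65 (SE 0.22), from 95.7 ± 11.6 to 15.3 ± 4.69 CPM, and Lrrc8e rose by 1.88 (SE 0.17), from 16.0 ± 1.46 to 59.1 ± 11.3 CPM. Clca2, a regulator of chloride currents in keratinocytes, rose from 45.0 ± 5.95 to 140 ± 18.7 CPM, or by 1.64 (SE 0.16). The calcium-activated chloride channel Ano1 rose by 0.74 (SE 0.13; adjusted p by edgeR 0.00107), and by 0.18 with an adjusted p of 0.243 under total counts, the highest of its alternatives.

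Of 16 potassium channels 11 were tested, 2 higher and 4 lower, or 54.5% called beside 48.7% of all genes. The tandem-pore channels diverged, as Kcnk6 rose from 9.36 ± 2.24 to 51.3 ± 9.75 CPM (log2 fold change 2.46, SE 0.22, adjusted p by edgeR 2.32e-05) and Kcnk7 by 1.57 (SE 0.16), while Kcnk1 fell from 31.7 ± 10.3 to 9.29 ± 2.71 CPM (−1.76, SE 0.24). The calcium-gated Kcnn4 fell by 1.42 (SE 0.35) and the inward rectifier Kcnj15 by 1.27 (SE 0.25). Over all 134 genes of these other transport lists, 83 were tested, 22 were higher and 24 lower, or 55.4% called beside 48.7% of all genes. With total counts the split was 15 higher and 35 lower. The lists were written with earlier results of these data known.

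Levels of the 8 genes were set side by side per kilobase of exon, since a longer transcript gives more counts. In Cyto-ID Low the order was Aqp3 (256 ± 19.7 CPM per kilobase), Car12 (54.0 ± 8.81), Slc4a2 (11.1 ± 1.11), Scnn1a (10.5 ± 3.80), Car2 (4.80 ± 1.04), Atp1b1 (1.22 ± 0.0941), Aqp5 (0.325 ± 0.106) and Rhcg (0.0368 ± 0.0236) (SD, n = 4). Slc4a2 and Scnn1a overlapped across libraries and the other neighbours did not. In Cyto-ID High Scnn1a stood second, at 101 ± 25.4 CPM per kilobase, after Aqp3 (479 ± 103) and before Car12 (23.5 ± 4.31). Slc4a2 with Car2, Atp1b1 with Aqp5 and Aqp5 with Rhcg overlapped in High. From the highest to the lowest the levels thus spanned several orders of magnitude in both fractions.

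**Figure D4:**
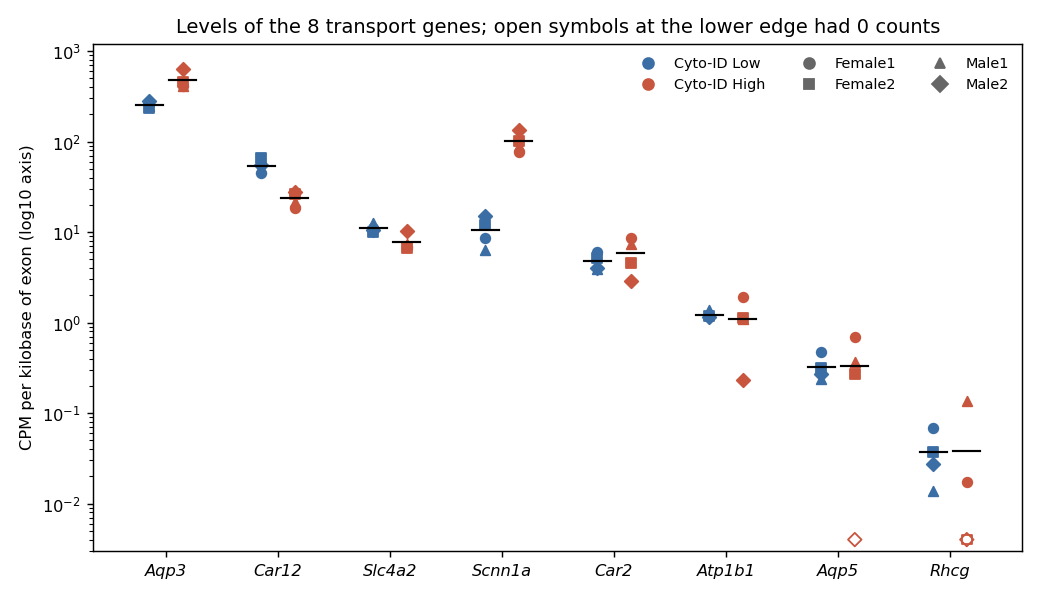
CPM per kilobase of exon of the 8 genes on a log10 axis, ordered by their mean in Cyto-ID Low, with 1 symbol per library and black lines at the mean of 4. Scnn1a moves from the level of Slc4a2 in Low to above Car12 in High, while Aqp5 and Rhcg stay at the lower end with 0 counts in 1 and 2 High libraries.

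The 3 tested genes that were not called, Aqp5, Car2 and Atp1b1, were each lowest in High Male2 and highest in High Female1. The summed endothelial and red blood cell markers had both extremes in the same libraries. Endothelial markers were at 3.34 CPM in High Male2 and 40.5 CPM in High Female1, and red blood cell markers at 9.88 and 161 CPM. Leukocyte, fibroblast and muscle sums were lowest in High Male2 too (7.36, 57.8 and 6.89 CPM), but highest in a Low library, at 113 CPM (leukocyte) and 74.0 CPM (muscle) in Low Female1 and 570 CPM (fibroblast) in Low Male2. In High Female1 these sums were 112, 73.7 and 496 CPM. In High Male2 the lowest value of the 8 libraries was found for 10 of 14 leukocyte, 8 of 10 fibroblast, 6 of 8 endothelial, 9 of 10 muscle and 5 of 6 red blood cell markers. Of the leukocyte markers 5 were at 0 there. Without High Male2 the log2 fold changes of Aqp5, Car2 and Atp1b1 were 0.39, 0.50 and 0.13, and none was called. The part of these other cells in the levels of the 3 genes was not tested. Scnn1a, Aqp3 and Car12 did not share this pattern, as Male2 was highest in High for each of them.

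**Figure D5:**
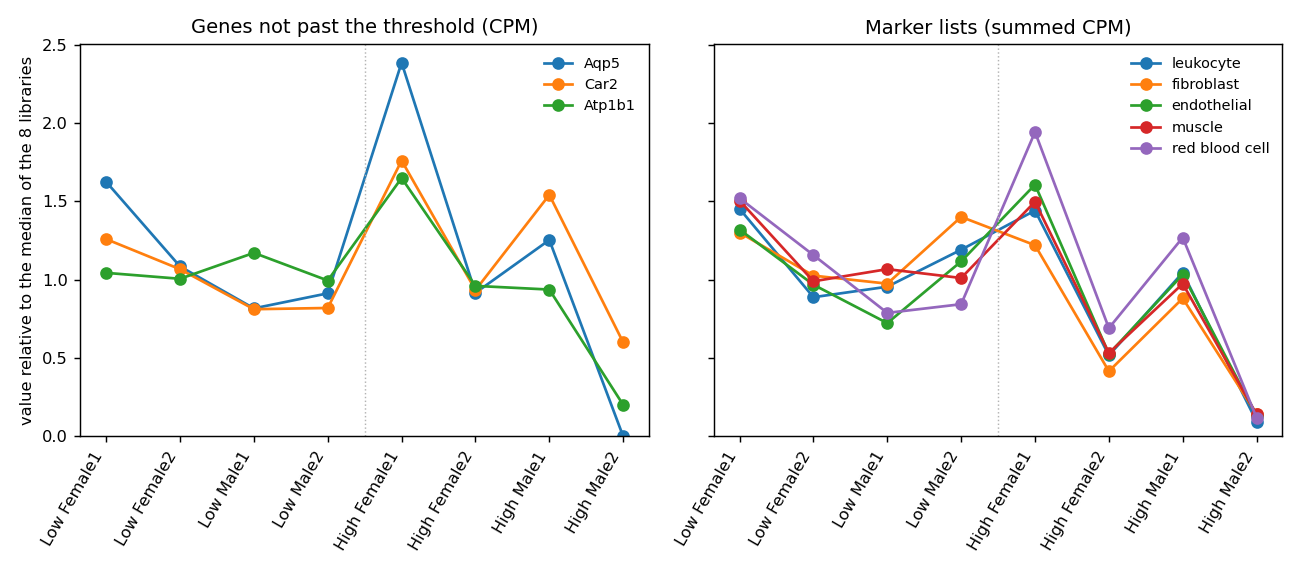
Aqp5, Car2 and Atp1b1 in CPM (left) and summed CPM of markers of 5 other cell types (right) in each of the 8 libraries, relative to the median of the 8. Lines only join the points of 1 gene or list, and the dotted line parts Low from High. High Male2 is the lowest point for all 3 genes and all 5 lists.

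Genes with the most similar profiles were sought among 10007 genes (10008 for Aqp5 and Atp1b1) with a mean of at least 5 CPM, by the root mean square distance of log2 CPM profiles centred on the gene mean over the 8 libraries. Nearest to Scnn1a were Ppl, which encodes a cornified envelope plakin, and Pcsk6, a proprotein convertase, both at 0.079. Nearest to Aqp3 were Tcf25 (0.046) and Vcp (0.051), to Car12 Gramd4 (0.064) and Iqce (0.074), and to Slc4a2 Nob1 (0.067) and Rexo1 (0.069). For the genes that were not called the distances were larger. They were 0.147 and 0.164 for Car2 with Tnfrsf23 and Cemip, and 0.300 and 0.314 for Atp1b1 with Lmtk3 and Cldn8. For Aqp5 the nearest gene was at 0.129 and the next, Sprr2e, at 0.188. These distances over 8 libraries are a description.

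Promoter sequences show what the called genes have at their start sites. RefSeq's table (GRCm38.p6) held 6 of the 8 genes, with 2 starts for Slc4a2, and no entry for Car2 and Scnn1a. Shown 5′ to 3′ are 250 bases before and 50 after the start of Aqp3, which rose, and of Car12 and the upstream start of Slc4a2, which fell. Capitals mark matches, searched on both strands, to 4 motifs. These were the core promoter box TATAAA, the AP-1 motif TGANTCA, the Kruppel-like factor motif CACCC and the Grainyhead motif AACCNGT, none of which overlapped another in these windows.
Aqp3, chr4:41098134-41098433, minus strand: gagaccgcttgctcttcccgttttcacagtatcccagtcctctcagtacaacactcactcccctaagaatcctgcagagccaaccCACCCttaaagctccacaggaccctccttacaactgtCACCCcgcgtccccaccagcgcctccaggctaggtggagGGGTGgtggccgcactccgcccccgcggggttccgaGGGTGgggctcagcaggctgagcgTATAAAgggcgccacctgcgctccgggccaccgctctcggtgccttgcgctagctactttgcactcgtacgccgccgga
Car12, chr9:66713436-66713735, plus strand: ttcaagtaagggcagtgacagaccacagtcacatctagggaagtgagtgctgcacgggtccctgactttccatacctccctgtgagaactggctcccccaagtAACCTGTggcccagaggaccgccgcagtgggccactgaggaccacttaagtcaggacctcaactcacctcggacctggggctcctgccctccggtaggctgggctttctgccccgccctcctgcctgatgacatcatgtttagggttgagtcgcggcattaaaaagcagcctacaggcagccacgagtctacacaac
Slc4a2, chr5:24424982-24425281, plus strand: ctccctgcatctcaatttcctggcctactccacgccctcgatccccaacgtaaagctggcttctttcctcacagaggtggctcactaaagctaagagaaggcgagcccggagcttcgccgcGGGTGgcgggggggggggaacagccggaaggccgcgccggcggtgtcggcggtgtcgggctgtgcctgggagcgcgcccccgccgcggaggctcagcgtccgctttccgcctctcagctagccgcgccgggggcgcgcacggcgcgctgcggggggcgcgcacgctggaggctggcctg

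The Aqp3 window held 1 TATAAA, which begins at −29 from the start, and 4 CACCC matches on either strand. The Car12 window held 1 AACCNGT and none of the other 3 motifs, and the Slc4a2 window 1 CACCC. Over all 32851 promoter windows of this length, 13.6% hold TATAAA, 57.5% CACCC, 8.43% AACCNGT and 7.81% TGANTCA. The GC content was 64.0% for Aqp3, 58.3% for Car12 and 72.0% for Slc4a2, with 21, 9 and 37 CpG sites. No window of the set held TGANTCA. Matches are letters in a window and were not measured as binding in these data.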

How the data were processed

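RNA of 8 sorted fractions (4 mice, Cyto-ID Low and High from each) was sequenced, and the authors deposited raw counts per gene symbol, per the labels and the values, which are whole numbers. The submitters' processing notes name STAR 2.7.3, DESeq2 and GRCm38. The counter, annotation and strandedness are not given in the sources used here. From the deposited counts, edgeR 4.0.16 in R 4.3.3 computed TMM-scaled CPM and the quasi-likelihood test of High against Low, with sex as covariate, genes filtered by filterByExpr, and Benjamini-Hochberg adjustment over 17344 genes at 0.05. Log2 CPM used a prior count of 2. Levels between genes were divided by union exon length (GENCODE M21, GRCm38), and all 142 symbols matched. Intervals of counting are given only as a floor of 3 counts for a 0, which covers counting error only. Reads without molecular identifiers are not independent molecules.

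Named genes were the 8 of the set, up to 3 per direction of each other list that passed the threshold, averaged 5 CPM or more and moved one way in all 4 animals, and 8 partners fixed by name, of which some are not reported here. The members and lists were chosen with earlier results of these data known. Same-numbered libraries come from the same animal, and their deviations from the fraction mean correlated at 0.44 (Female1), 0.32 (Female2), −0.002 (Male1) and 0.28 (Male2). No 2 libraries of a fraction were alike within counting noise (chi-square per degree of freedom at least 17.7). On simulated counts the test recovered 74.5% of 200 genes changed by 1.5 on the log2 scale in this comparison, with 12 others called, among 16967 tested. In the data 48.7% of tested genes were called, a far larger share than was changed in the simulation, so these rates may not carry over. Alternatives were RLE size factors, total counts, other filters, robust dispersion, DESeq2 1.42.0, limma 3.58.1 (voom), no covariate, the animal as block, and libraries or animals left out.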

Additional observations from a re-analysis of the deposited data

Results flagged for a closer look

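Of 36 groups of 4 libraries tested with Dixon's gap criterion, 6 held a library far from the other 3, where chance flags about 1 in 20. The count of 6 cannot be weighed against that rate, since the groups share libraries. The gastric list was also written with an earlier result on 1 animal known. Rhcg was at 0.305 CPM in High Male1, against 0 to 0.0386 CPM in the other High libraries, which is 8 counts. The sum of muscle markers was 74.0 CPM in Low Female1 and 48.7 to 52.5 CPM in the other Low libraries. Gastric epithelium markers summed to 19.9 CPM in Low Female2 and to 118 CPM in High Female2, where the other libraries had 0.694 to 1.42 CPM in Low and 1.26 to 1.44 CPM in High. Airway and gland markers were also highest in Female2, at 1.59 CPM in Low (0.604 to 0.710 CPM elsewhere) and 5.44 CPM in High (1.23 to 1.49 CPM elsewhere). Without both libraries of Female2, Scnn1a, Aqp3, Car12 and Slc4a2 were still called in the same direction.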

How the results depend on the processing

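Of 48 results, 38 held under all alternatives run, Scnn1a, Aqp3 and Car12 among them. A fold change held if its call and direction stayed the same. A count held if it stayed within a factor of 1.5, and an order of levels if no rank differed. Aqp5 changed sign, at 0.054 with RLE size factors, 0.020 with DESeq2, 0.062 without a covariate, 0.0071 without both libraries of Female2 and 0.44 without both of Male2, and with 1 library left out it ran from −0.60 to 0.39. It gave no value when at least 10 counts were asked of every library. Car2 was −0.19 with total counts and −0.030 to 0.50 with 1 library left out. Atp1b1 was 0.18 without both libraries of Male2 and −0.56 to 0.13 with 1 library left out. Scnn1g was −0.038 with total counts. With 1 library left out, Slc4a2 ran from −0.64 to −0.45 and the number of genes of the set called lower from 1 to 2. The causes were not tested, and leaving libraries out also lowers the sample number. All genes called ranged from 7269 (without Low Male1) to 10708 (total counts). With the animal as replicate block 9336 genes were called, and the block changed no call of the 7 tested genes of the set or of the genes named by rule and reported here. Car11, Aqp1, Aqp9 and Aqp11 were not run under the alternatives. Depth limits Rhcg, which had at most 8 counts in any library.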
